A study of Mus musculus with 6 samples.

Results

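The Slit ligands, their Robo receptors and the Slit-Robo GTPase-activating proteins (srGAPs) were measured by bulk RNA-seq in cultured mouse Schwann cells (SCs) with and without the receptor Plexin-B1. The family was taken as 10 genes, Slit1, Slit2, Slit3, Robo1, Robo2, Robo3, Robo4, Srgap1, Srgap2 and Srgap3, found by Ensembl identifier among the 55401 rows of the count table. All 10 were present, and 9 passed the filter on low counts that left 22318 genes to test; Robo3 did not. The cultures came from dorsal root ganglia (DRGs) of adult mice, 3 labelled WT and 3 labelled PB1 -/-, called Plxnb1-/- here. The mutant allele is a gene trap, a transmembrane-lacZ-neo cassette inserted into Plxnb1, and every cell of the animal carries it. Both genotypes were grown in medium with forskolin, neuregulin and serum, depleted of fibroblasts with an anti-Thy1 antibody and passaged, with a stated purity above 80%, so other cells remained. The sex of the mice was not given. The study's methods describe controls as wild-type or heterozygous littermates in general, while the labels of these samples say WT. Library names carry an M before the replicate number, and what it stands for is not explained. The labels do not state that the 3 samples of a genotype came from separate animals. The p-values therefore measure the spread between these samples, which may be partly technical.

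Slits are large secreted glycoproteins that bind the first immunoglobulin domain of Robo receptors and repel growing axons and migrating cells. Robos carry no enzyme of their own and act through partners, among them the srGAPs, which pair a GTPase-activating domain for Rac and Cdc42 with an F-BAR domain that shapes the membrane. In the cut mouse nerve, Slit3 from macrophages and Robo1 on SCs are known for keeping migrating SCs within the bridge of new tissue.

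Slit2 and Slit3 also host a microRNA family. Mir218-1 lies in intron 14 of Slit2 (chr5:48223942-48224051, + strand, GRCm38) and Mir218-2 in intron 14 of Slit3 (chr11:35616816-35616925, + strand), each in the direction of its host. The mature sequences, from RefSeq (GRCm38.p6), are shown since both loci give the same 5p arm while their 3p arms differ. Capitals mark the seed, bases 2 to 8.
miR-218-5p: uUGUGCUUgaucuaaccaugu
miR-218-1-3p: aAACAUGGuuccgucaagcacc
miR-218-2-3p: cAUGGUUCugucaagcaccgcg
The deposited table gives both hairpin genes 0 counts in each of the 6 libraries, which allows up to 0.0513 CPM. The libraries were poly(A)-selected, so this says nothing about the mature microRNA, and the counts of Slit2 and Slit3 below are exon counts.

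The 7 bases that pair with the miR-218-5p seed, AAGCACA on the mRNA strand, were looked for in the longest annotated 3′ UTR of each member. They were present in 6 of the 10, once in Robo1, Robo3, Srgap2 and Srgap3 and 2 times each in Robo2 and Slit2, and not in Slit1, Slit3, Robo4 or Srgap1. Of 21001 genes with an annotated 3′ UTR, 13.8% held the heptamer, at a median UTR length of 961 bp. Most members have longer UTRs than that (4817 bp for Srgap3, 3987 bp for Robo2, 3492 bp for Slit2, 1733 bp for Robo1), and a longer UTR offers more chances of a match. The matches of the most counted receptors and of Slit2 are shown with the bases before them, from GRCm38, with the match in capitals.
Robo1, chr16:73045334-73045355 (+): ttttttggttttaaAAGCACAa
Robo2, chr16:73895358-73895379 (-): ttttatttggtgatAAGCACAa
Robo2, chr16:73893032-73893053 (-): gtcacggcagacccAAGCACAg
Slit2, chr5:48304529-48304550 (+): gccaatactagcagAAGCACAt
Slit2, chr5:48306832-48306853 (+): gataattattagcaAAGCACAt
These matches are a description of the letters and not evidence of regulation in these cells.

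Libraries held 59252048 to 77280964 counts, and 3 counts correspond to 0.0383 to 0.0513 CPM (CPM stands for counts scaled to library size with TMM factors), a limit that covers counting error. Plxnb1 itself was 67.8 ± 26.1 CPM in WT and 16.1 ± 2.75 CPM in Plxnb1-/- cultures (SD, n = 3 each, as for every mean below), in the direction of the labels (log2 fold change -2.08, edgeR adjusted p = 0.0449). All 8 SC markers fixed for the check were detected, and their sum was 2254 to 2672 CPM in WT and 2721 to 3074 CPM in Plxnb1-/- cultures. S100b, a defining SC marker, was low at 7.56 and 7.65 CPM, while Sox10 stood at 486 and 550 CPM. Fibroblast markers were also abundant, with sums of 5493 to 7237 CPM in WT and 5127 to 5405 CPM in Plxnb1-/- cultures, mostly Col3a1. WT replicate 2 stood apart. It had the lowest SC sum (2254 CPM) and the highest fibroblast (7237 CPM), mural cell (1309 CPM) and endothelial (88.6 CPM) sums of the 6 cultures, and values without it are given below. Single markers did not all follow these sums. In WT replicate 2, Pdgfrb (727 CPM) and Cspg4 (491 CPM) were highest of the 6 cultures. Rgs5 (83.9 CPM) and Myh11 (5.02 CPM) were lowest of the 6 there, and Des (2.48 CPM) was lowest of the WT cultures. S100b (8.22 CPM) was highest there, while every other SC marker was lowest. Of the fibroblast and endothelial markers, Lum and Emcn were not highest there. In bulk RNA, fewer cells of a type and less RNA per cell cannot be told apart.

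A gene was called where its adjusted p was under 0.05 and its log2 fold change lay above 0.25 or below -0.25. By that rule edgeR's quasi-likelihood test called 0 of the 9 tested members and 0.0358% of all genes. DESeq2, the study's own tool, called 2 members, Slit3 and Robo2, both higher in Plxnb1-/- SCs. It called 2.24% of the genes given an adjusted p, 1.03% higher and 1.21% lower. Without any filter on low counts edgeR called the same 2 members and 0.949% of all genes. At an unadjusted edgeR p below 0.05 there were 7 members, 5 higher and 2 lower in Plxnb1-/- cultures, against 13.7% of all genes (6.95% higher and 6.78% lower). Without WT replicate 2 there were 5, against 9.1% of all genes in the same fit, and without Plxnb1-/- replicate 3 there were 4, against 7.25%. In 7 of the 9 tested members the 3 WT and 3 Plxnb1-/- values did not overlap, 5 of them higher and 2 lower in Plxnb1-/- cultures, against 19.7% of all tested genes (9.3% higher and 10.4% lower). Without WT replicate 2 the count was again 7, against 25.9%. The median log2 fold change of the 9 tested members was 0.17, and that of all tested genes was 0.005.

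**Figure D1:**
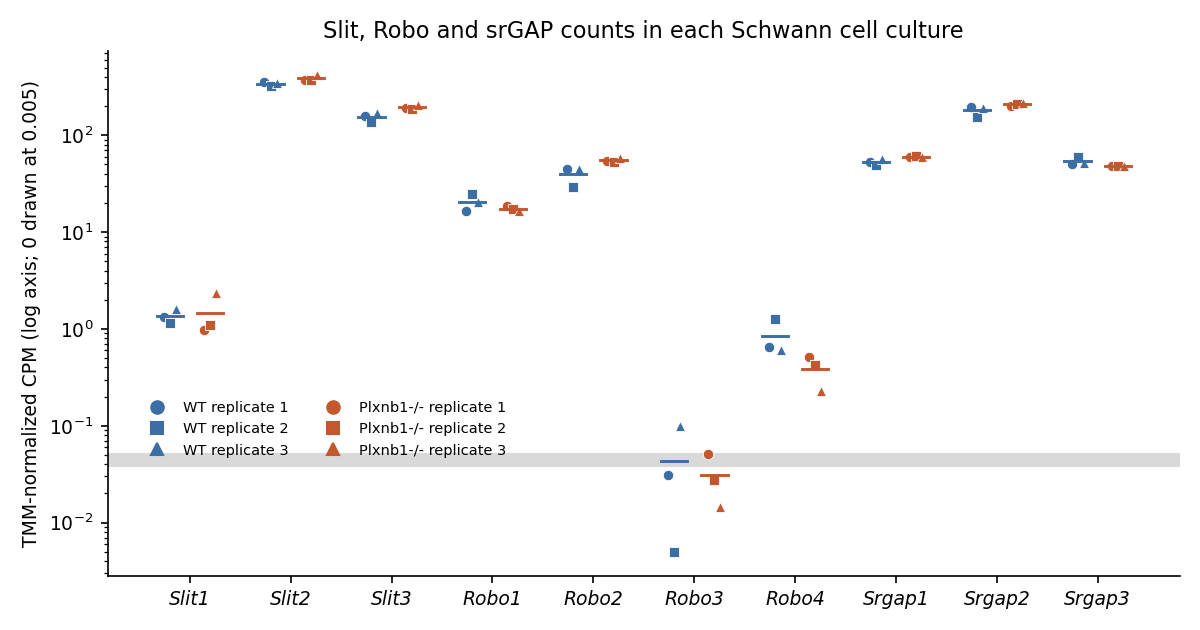
TMM-scaled CPM of each member (log axis) in the 3 WT (blue) and 3 Plxnb1-/- (orange) cultures, with shapes for replicate numbers, horizontal lines for means and a grey band for 3 counts. Slit2 lies at or above 319 CPM in every culture. Robo3 lies around the band, from 0 CPM in WT replicate 2 to 0.0989 CPM in WT replicate 3. The 0 has no place on a log axis and is drawn below all other points. Slit2, Slit3, Robo2, Srgap1 and Srgap2 have every Plxnb1-/- point above every WT point.

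Among the ligands, Slit2 and Slit3 were abundant and Slit1 was scarce. Slit3 (chr11:35121224-35708507, + strand) was 158, 138 and 170 CPM in WT replicates 1 to 3 and 190, 187 and 205 CPM in Plxnb1-/- replicates 1 to 3. Every Plxnb1-/- culture was above every WT culture, with means of 155 ± 16.0 and 194 ± 9.46 CPM. Its log2 fold change was 0.32 (SE 0.07), with an adjusted p of 0.266 by edgeR and 0.0100 by DESeq2. Without WT replicate 2, DESeq2 gave 0.24 with an adjusted p of 0.0110, and the call was lost since the value lay under the limit of 0.25. DESeq2 called Slit3 in 3 of the 6 fits that each left out a culture, and its adjusted p was 0.0563 without Plxnb1-/- replicate 2 and 0.317 without Plxnb1-/- replicate 3.

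Slit2 (chr5:47983138-48307733, + strand) was 357, 319 and 346 CPM in the WT cultures and 370, 369 and 423 CPM in the Plxnb1-/- cultures. The genotypes did not overlap, with a gap of 12.3 CPM between WT replicate 1 and the lowest Plxnb1-/- culture. On the log2 scale the fold change was 0.18 (SE 0.07), with an adjusted p of 0.299 by edgeR and 0.157 by DESeq2. Slit1 (chr19:41600257-41743665, - strand), known mainly from the nervous system, had 86, 67 and 115 counts in WT and 76, 80 and 163 counts in Plxnb1-/- cultures, or 1.37 ± 0.241 and 1.48 ± 0.761 CPM. Its genotypes overlapped, and its small log2 difference of 0.09 (SE 0.32, adjusted p = 0.927 by edgeR) was -0.02 without WT replicate 2 and -0.41 without Plxnb1-/- replicate 3, so it has no settled direction.

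The Robo receptors went different ways. Robo2 (chr16:73891839-74411825, - strand), a receptor for all Slits, was 44.9, 29.5 and 44.9 CPM in WT cultures and 54.9, 52.8 and 58.3 CPM in Plxnb1-/- cultures. WT replicate 2 was well below the other 2 WT cultures, the Plxnb1-/- values lay close together, and the groups did not overlap. The corresponding log2 fold change was 0.47 (SE 0.14), with an adjusted p of 0.275 by edgeR and 0.0242 by DESeq2. Without WT replicate 2 it was 0.30, called by DESeq2 and not by edgeR. DESeq2 called Robo2 in 2 of the 6 left-out fits, and without WT replicate 1 or any 1 of the Plxnb1-/- cultures its adjusted p lay between 0.107 and 0.380.

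Robo1 (chr16:72308306-73046095, + strand), the neighbour of Robo2 on chromosome 16, was 16.5, 24.7 and 20.5 CPM in WT cultures and 18.6, 17.3 and 16.4 CPM in Plxnb1-/- cultures. The lowest WT culture lay within the Plxnb1-/- range, so the groups overlapped. Its log2 fold change was -0.24 (SE 0.13, adjusted p = 0.442 by edgeR and 0.344 by DESeq2), and it was -0.08 without WT replicate 2.

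Robo4 (chr9:37401897-37415115, + strand), the Robo of endothelial cells, rested on few reads, with 42, 74 and 43 counts in WT and 40, 31 and 16 counts in Plxnb1-/- cultures. In CPM these were 0.656, 1.26 and 0.607 against 0.511, 0.428 and 0.231, with no overlap. The log2 fold change was -1.09 (SE 0.37, adjusted p = 0.294 by edgeR), and -0.68 without WT replicate 2; DESeq2 gave no adjusted p at this count. The endothelial markers Pecam1 (2.48 ± 1.08 and 1.56 ± 0.473 CPM) and Tie1 (0.822 ± 0.332 and 0.487 ± 0.152 CPM) were also lower on average in Plxnb1-/- cultures and were highest in WT replicate 2, as Robo4 was. Cdh5, the endothelial marker with the most counts, was nearly level (59.9 ± 8.17 and 57.65 ± 2.62 CPM). Emcn was slightly higher on average in Plxnb1-/- cultures (7.06 ± 0.49 and 7.25 ± 0.673 CPM) and was not highest in WT replicate 2. Of the 6 endothelial markers, 5 had a log2 fold change below 0 and none separated the genotypes. Their part in the Robo4 values was not tested. Robo3 (chr9:37415669-37433246, - strand), the divergent Robo of commissural axons, had 2, 0 and 7 counts in WT and 4, 2 and 1 counts in Plxnb1-/- cultures, at or near the limit of 3 counts, and no fold change is given.

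Within the srGAPs, Srgap1 and Srgap2 were higher and Srgap3 lower in Plxnb1-/- cultures, and none was called by either tool. Each was without overlap, as were 19.7% of all tested genes (9.3% higher and 10.4% lower). Srgap2 (chr1:131285251-131527352, - strand), whose F-BAR domain drives membrane protrusion, was 198, 154 and 191 CPM in WT and 199, 211 and 216 CPM in Plxnb1-/- cultures. The gap between WT replicate 1 and the lowest Plxnb1-/- culture was 0.780 CPM. The log2 fold change was 0.20 (SE 0.09, adjusted p = 0.348 by edgeR), and 0.10 without WT replicate 2.

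Srgap1 (chr10:121780991-122047315, - strand) was 53.1, 49.3 and 57.0 CPM in WT and 59.1, 60.7 and 59.9 CPM in Plxnb1-/- cultures, a log2 fold change of 0.17 (SE 0.06, adjusted p = 0.291). Srgap3 (chr6:112717971-112947266, - strand), also known as WRP for its binding to WAVE1, was 50.6, 60.0 and 51.9 CPM in WT and 47.9, 48.5 and 48.1 CPM in Plxnb1-/- cultures. Its log2 fold change was -0.17 (SE 0.06, adjusted p = 0.320), and -0.09 without WT replicate 2, whose value was the highest. The Plxnb1-/- values of each gene lay close together. Their coefficients of variation were 1.32% for Srgap1 and 0.619% for Srgap3, against 7.25% and 9.37% in WT. At 4156 to 4626 and 3332 to 3748 counts, these values are no larger than counting error alone would give. With 3 cultures they do not show that the genes vary little. The WT spread of Srgap3 came mostly from WT replicate 2. Exons of Srgap1 overlap those of Gm48804 on the same strand by 131 bp, and exons of Srgap3 overlap those of Gm44081 on the opposite strand by 150 bp, and the strand setting of the counting was not given.

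**Figure D2:**
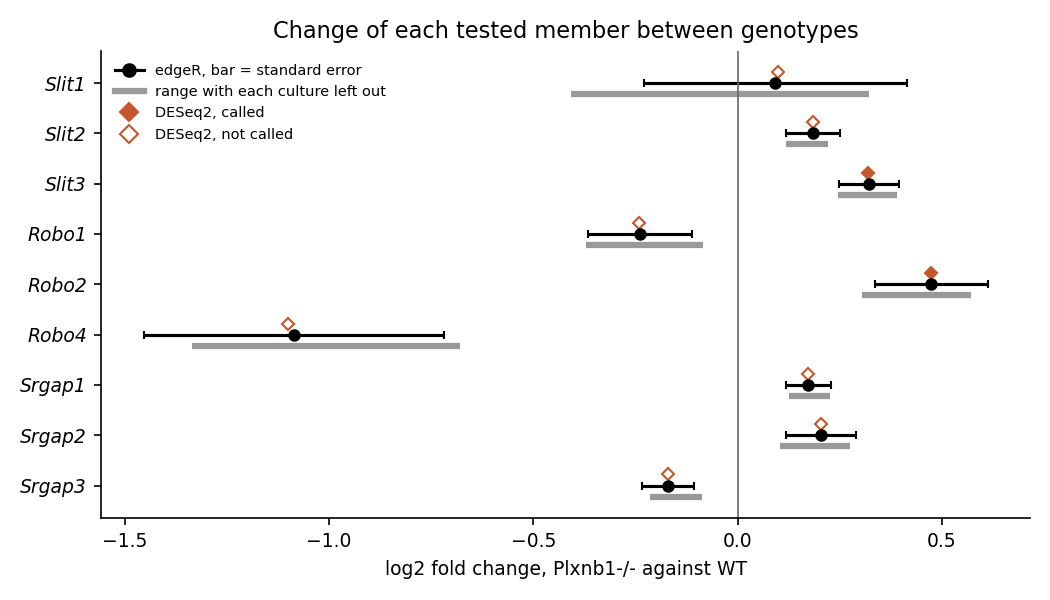
The log2 fold change of each tested member, Plxnb1-/- against WT, from edgeR with its standard error (black), from DESeq2 (diamonds, filled where called) and as the range with each culture left out in turn (grey bars). Slit3 and Robo2 are the filled diamonds, and the grey bar of Slit1 crosses 0.

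Several of these differences ran alongside markers of other cells. Thy1, the antigen used to remove fibroblasts, was 524 ± 115 CPM in WT and 401 ± 14.7 CPM in Plxnb1-/- cultures, and Pdgfra was 73.0 ± 15.9 and 57.8 ± 1.39 CPM. Col3a1, most of the fibroblast sum, was 5299 ± 737 and 4509 ± 150 CPM. Dcn was level, at 281 ± 43.8 and 280 ± 7.98 CPM (log2 fold change -0.0064), and Lum was slightly higher, at 41.4 ± 2.35 and 43.8 ± 4.12 CPM. The fibroblast sum over the SC sum was 2.10, 3.21 and 2.22 in WT and 1.88, 1.80 and 1.74 in Plxnb1-/- cultures, without overlap. None of the 5 fibroblast and 8 SC markers was called by either tool, although 4 of the 5 fibroblast markers had a log2 fold change below 0 and all 8 SC markers one above 0. The members lowest in WT replicate 2 were Slit2, Slit3, Robo2, Srgap1 and Srgap2, and those highest there were Robo1, Robo4 and Srgap3. Mural sums ran from 1037 to 1309 CPM in WT and from 1008 to 1056 CPM in Plxnb1-/- cultures, and endothelial sums from 67.4 to 88.6 and from 70.9 to 76.4 CPM. Macrophage and leukocyte markers summed to 25.2 to 28.1 and 29.0 to 32.9 CPM, neuronal markers to 18.6 to 22.8 and 23.3 to 35.8 CPM, and the 2 satellite glia markers to 696 to 815 and 840 to 864 CPM. No marker list lay below the limit of 3 counts, and the part of other cells in the members' values was not tested.

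**Figure D3:**
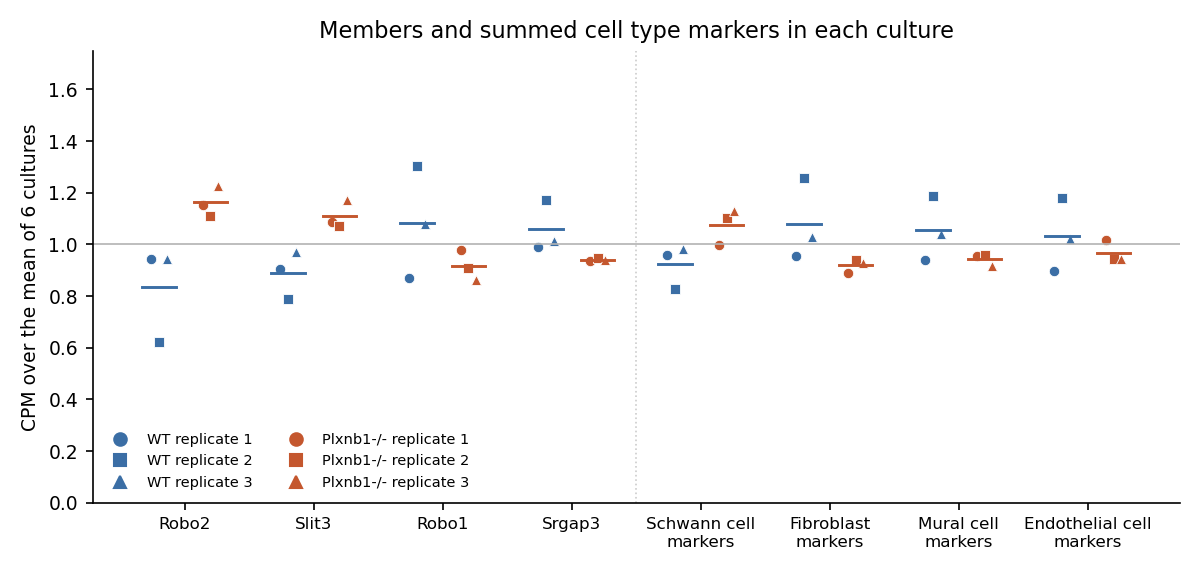
Robo2, Slit3, Robo1 and Srgap3 and the summed markers of 4 cell types in each culture, as CPM over the mean of the 6 cultures (vertical axis), with WT in blue, Plxnb1-/- in orange and lines for means. WT replicate 2 (blue squares) is lowest for Robo2, Slit3 and the SC sum. It is highest for Robo1, Srgap3 and the fibroblast, mural and endothelial sums, which not every single marker follows.

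To compare levels between members, CPM was divided by the length of all annotated exons of a gene in kb. The aligner used does not span introns, so reads across exon junctions may be lost, more so where exons are short. The longest transcript averages 145 bases per exon in Slit3 and 404 in Srgap3, the ends of the range among members. The effect on the order of levels was not tested. In WT cultures Slit3 was highest at 25.6 ± 2.64 CPM per kb, followed by Srgap2 at 14.4 ± 1.87 and Slit2 at 13.4 ± 0.758, which did not differ beyond their spread. Srgap1 (5.82 ± 0.422) and Srgap3 (5.50 ± 0.515) also overlapped, and Robo2 (2.34 ± 0.522) lay above Robo1 (1.25 ± 0.249). Slit1 (0.232 ± 0.0407) and Robo4 (0.159 ± 0.0690) overlapped, and Robo3 was last. In Plxnb1-/- cultures the order was the same, with Slit3 at 32.0 ± 1.56, Robo2 at 3.26 ± 0.163 and Robo1 at 1.05 ± 0.0665, and there Srgap1 (6.56 ± 0.0865) and Srgap3 (4.89 ± 0.0302) no longer overlapped, nor did Slit1 (0.249 ± 0.129) and Robo4 (0.0735 ± 0.0272). The place of Slit2 depends on the length taken. Its 23 annotated transcripts together cover 25433 bp, whereas the longest one has 9960 bp, and per kb of the longest transcript Slit2 (34.2 ± 1.93 in WT) stood above Slit3 (29.7 ± 3.06), with overlapping ranges. In Plxnb1-/- cultures the same change of length put Robo2 (6.44 ± 0.323) above Srgap3 (5.42 ± 0.0335).

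The balance between related members within a culture does not depend on how libraries are scaled to each other. The level of Robo2 over that of Robo1, per kb of exon, was 2.65, 1.16 and 2.13 in WT and 2.87, 2.97 and 3.46 in Plxnb1-/- cultures. The ratio was higher in each Plxnb1-/- culture than in any WT culture, at 3.10 ± 0.313 against 1.98 ± 0.754, or 1.57 times. Without WT replicate 2 it was 1.30 times, again with no overlap. Robo2 alone did not overlap between genotypes, so this ratio is not independent of that difference. By edgeR without WT replicate 2, the log2 fold change was 0.30 for Robo2 and -0.08 for Robo1. Srgap1 over Srgap3 was 1.13, 0.886 and 1.18 in WT and 1.33, 1.35 and 1.35 in Plxnb1-/- cultures. Srgap2 over Srgap3 was 3.06, 2.02 and 2.88 in WT and 3.25, 3.41 and 3.52 in Plxnb1-/- cultures. Both srGAP ratios were higher in every Plxnb1-/- culture. This had to follow, since Srgap1 and Srgap2 were each higher and Srgap3 lower there without overlap. It is no separate result. The Plxnb1-/- means were 1.26 and 1.28 times the WT means, and 1.16 and 1.14 times without WT replicate 2. Slit2 over Slit3 overlapped between genotypes, at 0.538, 0.552 and 0.487 in WT and 0.465, 0.471 and 0.493 in Plxnb1-/- cultures. These ratios are descriptions, and no test was run on them.

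**Figure D4:**
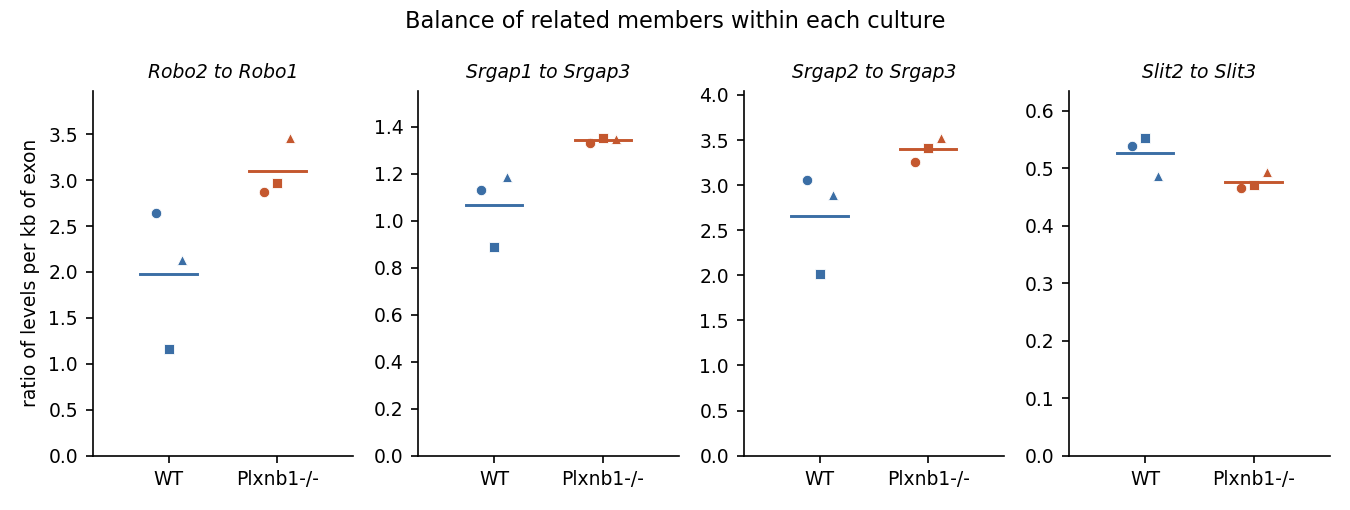
Ratios of levels per kb of exon within each culture, on axes that start at 0, with circles, squares and triangles for replicates 1, 2 and 3 and lines for the means of 3 cultures. Robo2 to Robo1, Srgap1 to Srgap3 and Srgap2 to Srgap3 are higher in each Plxnb1-/- culture (orange) than in any WT culture (blue), and Slit2 to Slit3 overlaps. Both srGAP ratios had to be higher, given the values of the single genes.

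Profiles over the 6 cultures were compared by the mean absolute difference of log2 CPM after each gene's own mean was taken off, among 14991 genes of at least 1 CPM. Nearest to Robo2 were Rassf4 (0.0353), Cd24a (0.0435), which encodes a small surface glycoprotein, and Sema3g (0.0445), a secreted semaphorin. Nearest to Robo1 were Twist2 (0.0265), a mesenchymal transcription factor, Serinc2 (0.0266) and Serpinb9 (0.0273), and Robo1 and Robo2 lay 0.408 apart. Nearest to Slit3 were Tmem59l (0.0227), Gm13568 (0.0254) and Tbc1d4 (0.0284), and of the members Srgap2 came closest, at 0.0612 and rank 153. Nearest to Slit2 were Cntrob (0.0143), Cdkn1b (0.0192), a cell cycle inhibitor, and Sgsm3 (0.0198). With 6 points per gene and shared libraries, these distances are descriptions.

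Beyond the members, 46 genes of Slit-Robo signaling were listed, of which 45 were tested; the netrin receptor Dcc was too low. edgeR called none and DESeq2 called 3, and 13 of 45 (28.9%) did not overlap between genotypes, 9 higher and 4 lower in Plxnb1-/- cultures, against 19.7% of all tested genes (9.3% higher and 10.4% lower). The same number had an unadjusted edgeR p below 0.05, against 13.7% of all genes, and DESeq2 called 2.24% of all genes given an adjusted p. The median log2 fold change of the list was 0.02, with 29 genes above 0 and 16 below. Of 2 other secreted Robo ligands, Ndnf was 19.1, 20.3 and 19.2 CPM in WT and 24.9, 24.6 and 29.4 CPM in Plxnb1-/- cultures. It did not overlap, and WT replicate 2 was here close to the other WT cultures. Its log2 fold change was 0.43 (SE 0.08), with an adjusted p of 0.199 by edgeR and 4.22e-04 by DESeq2, which called it in all 6 left-out fits. Nell2, a ligand of Robo3, was low, at 0.815 ± 0.365 and 0.812 ± 0.147 CPM.

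Of 12 tested co-receptors and surface partners, 3 did not overlap (25.0%, beside 19.7% of all tested genes), each higher in Plxnb1-/- cultures. They included Sdc4, a heparan sulfate proteoglycan, at 189, 160 and 181 CPM in WT and 201, 216 and 230 CPM in Plxnb1-/- cultures (log2 fold change 0.29, SE 0.07, adjusted p = 0.273 by edgeR and 0.0207 by DESeq2). Sdc4 was lowest in WT replicate 2, and DESeq2 called it in 2 of the 6 left-out fits, not without WT replicate 2 or 3 or Plxnb1-/- replicate 2 or 3. Sdc2 had the lowest log2 fold change of that group, -0.14, with overlap. The 20 adaptors, kinases and actin regulators held 9 without overlap (45.0%, beside 19.7% of all tested genes), 5 higher and 4 lower. Enah, an Ena/VASP protein that extends actin filaments at protrusions, was 89.8, 124 and 92.1 CPM in WT and 79.9, 72.0 and 62.7 CPM in Plxnb1-/- cultures. Its log2 fold change was -0.51 (SE 0.13), with an adjusted p of 0.273 by edgeR and 0.00607 by DESeq2, and it too was highest in WT replicate 2. DESeq2 called Enah in 4 of the 6 left-out fits, not without Plxnb1-/- replicate 2 or 3. Its relative Vasp had a log2 fold change of -0.21, under the limit of 0.25 although its adjusted p by DESeq2 was 0.0237. Arhgap39, the mammalian relative of fly Vilse, had the highest value of the group, 0.26 (adjusted p = 0.293 by edgeR and 0.0993 by DESeq2).

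The 4 genes of Robo trafficking ran from Ndfip1 (0.0048) to Prrg4 (0.32, SE 0.18), and the 4 F-BAR relatives of the srGAPs from Trip10 (-0.08) to Arhgap4 (0.05), all with overlap and none called.

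**Figure D5:**
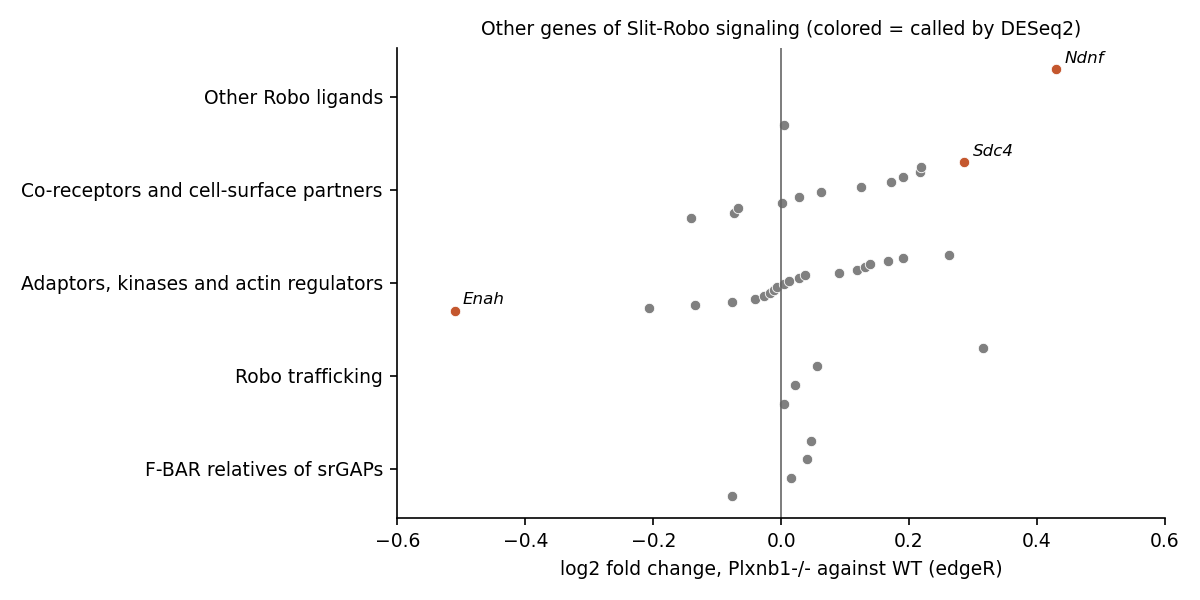
The edgeR log2 fold change, Plxnb1-/- against WT (horizontal axis), of tested genes in 5 groups of Slit-Robo signaling, 1 point per gene, spread vertically within a group for display. The colored points are the 3 genes called by DESeq2, Ndnf and Sdc4 above 0 and Enah below.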

How the data were processed

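RNA-seq libraries of 3 WT and 3 Plxnb1-/- SC cultures were grouped by their genotype labels. The authors trimmed reads (Trim Galore 0.6.5), aligned them to mm10 with Bowtie2 2.4.1, which does not span introns, removed duplicates (SAMtools 1.10) and deposited exon counts from featureCounts. The deposited FPKM values divide by the span of the whole gene, introns included, for all 10 members, so they served as an alternative. Positions and lengths came from GENCODE M21, with 55141 of 55401 identifiers matched.

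Genes reaching 2 counts in 5 or more of 6 libraries were tested with edgeR 4.0.16 (TMM, quasi-likelihood test, Benjamini-Hochberg adjustment over all tested genes) in R 4.3.3. A call needed an adjusted p under 0.05 and a log2 fold change beyond 0.25 in either direction. DESeq2 1.42.0, other scalings and filters, limma 3.58.1 on log2(FPKM + 0.1) and left-out cultures were alternatives. The scripts were tested on simulated data. All members were named, as were Plxnb1, the markers, genes overlapping a member's exons, the 3 nearest profiles of Slit2, Slit3, Robo1 and Robo2, and of each group of the signaling list the highest, the lowest and any called gene. A group of that list is not reported here. Vasp and single markers were picked after their values were seen. Members and lists were chosen with earlier results of these data known.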

Additional observations from a re-analysis of the deposited data

How the results depend on the processing

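Every setting kept edgeR's count of called members at 0 except no filter on low counts (2 members), and DESeq2 called 2; for the signaling list both called 3. Over all genes the count of 8 became 296 with no filter, 335 with DESeq2, 3 and 3 with limma on FPKM at pseudocounts of 0.1 and 1, and 5 with the replicate number as a block. The same replicate numbers did not deviate together (r of -0.022, 0.008 and 0.065), and the block called 0 members. With each culture left out, edgeR called 0 members, 0 list genes and 4 to 25 genes in all. DESeq2, left-out fits added after seeing the data, called 0 to 2 members, 1 to 4 list genes and 46 to 938 genes in all (160, 220, 286 and 121 without WT replicate 2, WT replicate 3, Plxnb1-/- replicate 1 and Plxnb1-/- replicate 2). It called Slit3 without WT replicate 1, WT replicate 3 or Plxnb1-/- replicate 1, Robo2 without WT replicate 2 or 3, Robo1 without WT replicate 1, and no member without Plxnb1-/- replicate 2 or 3. Slit3 was called at log2 0.32 with no filter and with DESeq2, and 0.33 to 0.39 in those left-out fits. Robo2 was called at 0.48 and 0.47, and 0.30 to 0.57. Robo1 was called at -0.38 (adjusted p = 0.0157). Slit1 reversed without WT replicate 2 (-0.0173 by edgeR, -0.0133 by DESeq2) and without Plxnb1-/- replicate 3 (-0.41 by both). Left-out ranges by edgeR were 0.12 to 0.22 for Slit2, 0.25 to 0.39 for Slit3, 0.30 to 0.57 for Robo2, -0.37 to -0.08 for Robo1, -1.34 to -0.68 for Robo4, and 0.13 to 0.23, 0.10 to 0.27 and -0.21 to -0.09 for Srgap1, Srgap2 and Srgap3. The count of members without overlap was 7 or 8 in every left-out set, against 25.9% to 35.0% of all genes. Per kb of the longest transcript, WT levels were 34.2 for Slit2, 29.7 for Slit3, 2.72 for Robo1, 4.63 for Robo2, 6.82 for Srgap1, 22.5 for Srgap2 and 6.10 for Srgap3, and Slit2 over Slit3 was 1.16 in WT and 1.05 in Plxnb1-/- cultures, by construction from the lengths. For the other changes the cause was not tested.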
